A study of Mus musculus with 157 samples.

Results

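A set of 10 genes grouped as p53 targets in repair, redox and metabolism was followed in B cells with broken DNA. Whether p53 activates each of them in mouse B cells was not tested. The set held the excision repair genes Ddb2, Xpc and Ercc5, the translesion polymerase gene Polk and the nucleotide supply gene Rrm2b. It also held the sestrin genes Sesn1 and Sesn2, the carbonyl reductase gene Dcxr, and the regulators Zmat3 and Phlda3. The genes were taken by name, 10 of the 19600 in the table of counts. All 10 had enough counts to be among the 12755 genes tested for level. The choice was made with earlier results of these data known. Shares of all genes beside the set are therefore a background and not a test of it. Splenic B cells of C57BL/6Babr mice, isolated with a magnetic kit, were grown with the bacterial cell wall component lipopolysaccharide (LPS, 10 µg/ml), which makes B cells divide. The first group had LPS alone for 48 h (LPS). The second then had etoposide, a topoisomerase II poison that breaks both strands of DNA, at 20 µM for 4 h (LPS+ET). The third had LPS for 47 h, then KU55933, an inhibitor of the kinase ATM, at 10 µM for 1 h, and then the same etoposide (LPS+ET+KU). All groups had cycloheximide at 100 µg/ml for 3 min, which holds ribosomes on mRNA, before extracts were spread over sucrose gradients. Among the samples analysed, KU55933 was given only together with etoposide. Each treatment had 4 gradients, called here by the library pools LUL15, LUL16, LUL17 and LUL18, of which every pool held 1 gradient of each treatment.

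ATM is switched on by double-strand breaks and, directly and through Chk2, can keep p53 from being destroyed. For these B cells the study proposes that p53 protein after damage depends on translation of its mRNA more than on protein stability. Active p53 binds paired 10-base half-sites in DNA and raises transcription of genes with very different roles. Nucleotide excision repair removes bulky lesions: Ddb2 and Xpc encode damage sensors and Ercc5 encodes the endonuclease XPG, which cuts the strand on the 3′ side of the lesion. Polk encodes DNA polymerase kappa, which copies past damaged bases, and Rrm2b encodes the small ribonucleotide reductase subunit p53R2, which supplies deoxynucleotides outside S phase. Sestrins restrain the growth kinase complex mTORC1 when leucine is short. Dcxr encodes dicarbonyl and L-xylulose reductase, Zmat3 an RNA-binding zinc finger protein, and Phlda3 a small protein whose pleckstrin homology domain competes with the kinase Akt for membrane lipids.

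Tags were counted at the 3′ ends of mRNA, and the ends counted were close to annotated ends for most of these genes (coordinates of the GRCm38 assembly). In 8 of the 10 genes the most used site lay in an untranslated exon no more than 100 bases from an annotated end, while 5 of the genes (Polk, Sesn1, Sesn2, Dcxr and Phlda3) were counted at 1 site. Phlda3 (chr1:135766119-135769135, plus strand) was counted at position 135769134, 2 bases from an annotated end. The single site of Sesn2 (chr4:132492032-132510500, minus strand) coincided with an annotated end at 132492032. Rrm2b (chr15:37923952-37961317, minus strand) differed: 58.8% of its 3226 counts came from position 37943246 in an intron, 1802 bases from the nearest annotated end, and 37.5% from position 37923954 at the annotated end. All 107 counts of Ddb2 (chr2:91211572-91236981, minus strand) came from 3 intronic sites, 87.9% of them at position 91221407, 9551 bases from an annotated end. The Ddb2 values below are therefore few and do not come from the end of its annotated mRNA. Those of Rrm2b sum its sites, most counts being from the intronic one, and the sites were not taken apart.

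The remaining genes lay at chr6:91489305-91515883 (Xpc, minus strand), chr1:44147847-44181259 (Ercc5, plus strand), chr13:96480689-96542484 (Polk, minus strand), chr10:41810574-41908423 (Sesn1, plus strand), chr11:120725399-120727280 (Dcxr, minus strand) and chr3:32334796-32365677 (Zmat3, minus strand). Their main sites fell in untranslated exons. The most used Xpc site held 78.1% of its 1051 counts, that of Ercc5 91.5% of 1158 and that of Zmat3 86.9% of 27869.

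Promoter windows of 250 bases upstream of RefSeq transcript starts on GRCm38.p6 were at hand for 6 of the genes (8 windows, since Sesn1 and Polk had 2 starts each). The p53 half-site pattern, 3 purines, C, 2 bases that are A or T, G and 3 pyrimidines, which reads the same on both strands, was found in 2 of these windows, 1 of Sesn1 and 1 of Polk. The pattern was in 7.13% of 32851 windows of the same length. Those windows and that of Phlda3, the gene with the highest fold in etoposide, are shown 5′ to 3′ on the strand of the gene, with the half-site in capitals.
Phlda3, chr1:135765835-135766084, plus strand: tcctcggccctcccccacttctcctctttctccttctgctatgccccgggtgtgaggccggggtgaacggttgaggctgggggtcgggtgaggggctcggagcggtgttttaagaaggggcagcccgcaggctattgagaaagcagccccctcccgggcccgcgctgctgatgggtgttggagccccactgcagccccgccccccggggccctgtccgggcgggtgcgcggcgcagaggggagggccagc
Sesn1, chr10:41887189-41887438, plus strand: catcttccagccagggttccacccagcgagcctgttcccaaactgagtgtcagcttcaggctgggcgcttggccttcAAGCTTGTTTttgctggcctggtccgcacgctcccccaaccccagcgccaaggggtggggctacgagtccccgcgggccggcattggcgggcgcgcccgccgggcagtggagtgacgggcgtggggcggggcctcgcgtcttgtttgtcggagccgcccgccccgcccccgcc
Polk, chr13:96519188-96519437, minus strand: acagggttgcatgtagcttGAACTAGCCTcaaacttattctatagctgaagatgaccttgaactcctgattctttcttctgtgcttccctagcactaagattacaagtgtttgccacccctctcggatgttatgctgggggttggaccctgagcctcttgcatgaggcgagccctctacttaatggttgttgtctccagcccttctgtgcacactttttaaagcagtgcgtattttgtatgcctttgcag
The half-site of Sesn1 began at base -173 from the start and that of Polk at base -231, and the Phlda3 window held none. A match of letters is not a bound site, and p53 binding was not measured.

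The 156 libraries of fractions 4 to 16 held 14724 to 4170688 counts each (median 811932) and the 12 gradients 6404957 (LPS+ET of LUL16) to 21449781 (LPS+ET+KU of LUL16). Levels are given as counts per 1000000 (CPM) of fractions 4 to 16 summed over a gradient, with gradient totals scaled by TMM, a method that aligns the bulk of the genes. They measure mRNA bound to ribosomes relative to all mRNA counted there. Raw counts were summed, so that a fraction weighs by its library total, which does not measure its RNA. A change in mRNA amount and a change in its binding to ribosomes cannot be told apart from the level alone. In bulk samples, fewer cells with an mRNA and less of it per cell cannot be told apart either. Levels of different genes were not ranked. The B cell antigen receptor genes Cd79b and Cd79a were present throughout. Before scaling between gradients, Cd79b stood at 670 to 928 CPM in LPS, 582 to 643 after etoposide and 675 to 946 with the inhibitor, and Cd79a at 82.4 to 91.8, 43.1 to 64.7 and 56.1 to 82.7 CPM.

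After etoposide, 7 of the 10 genes rose: Phlda3, Dcxr, Zmat3, Ercc5, Sesn2, Polk and, by less, Xpc. The first 6 rose 6.33- to 39.1-fold in mean CPM, while the mean of Xpc was 1.82-fold that of LPS. Rrm2b, Sesn1 and Ddb2 did not pass the test. Called means an adjusted p under 0.01 (edgeR quasi-likelihood test, Benjamini-Hochberg adjustment over 12755 genes), the threshold of the study, and 7.88% of the genes tested were called higher in this comparison. The same 7 genes had 4 LPS+ET gradients that did not overlap the 4 of LPS, which 14.8% of genes had in the higher direction. Over the 10 genes the log2 values had a median of 2.77, beside 0.03 for all genes tested. Since the genes were chosen with earlier results of these data known, these contrasts describe the set and do not test it.

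Among the regulators, Phlda3 stood at 9.71, 8.01, 7.13 and 6.71 CPM in the LPS gradients of LUL15 to LUL18 and at 414, 287, 262 and 272 CPM in LPS+ET, a log2 fold change of 5.29 ± 0.31 (SE; adjusted p = 3.6e-07). The lowest LPS+ET gradient was far above the highest of LPS. With raw counts summed over fractions, the mean was 39.1-fold higher. Zmat3 stood at 30.8, 30.3, 30 and 34.2 CPM in LPS and at 344, 205, 335 and 356 CPM in LPS+ET, a log2 fold change of 3.31 ± 0.24 (adjusted p = 1.4e-06). The LUL16 gradient was the low one of LPS+ET.

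Dcxr, of carbonyl and xylulose metabolism, went from 25.3, 33.6, 22 and 28.8 CPM in LPS to 310, 239, 279 and 354 CPM in LPS+ET, a log2 fold change of 3.43 ± 0.29 (adjusted p = 5.1e-06). Of the sestrins, Sesn2 rose and Sesn1 did not pass the test. Sesn2 went from 28.2, 25.6, 54 and 40.6 CPM to 248, 200, 343 and 285 CPM, a log2 difference of 2.86 ± 0.31 (adjusted p = 2.5e-05), and all its LPS+ET gradients lay above all of LPS. Sesn1 stood at 49.9, 51.9, 42.2 and 52.9 CPM in LPS and at 49, 48, 39.5 and 43.7 CPM in LPS+ET. These Sesn1 ranges overlap, although LPS+ET was lower in 4 of 4 pools as 25.1% of genes were, and the log2 fold change of -0.13 ± 0.19 did not pass the test (adjusted p = 0.69).

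Of the repair genes, Polk and Ercc5 rose. Polk stood at 4.39, 3.98, 6.91 and 8.2 CPM in LPS and at 27, 30.7, 48.1 and 42.9 CPM in LPS+ET, a log2 fold change of 2.67 ± 0.33 (adjusted p = 7.5e-05). Ercc5 stood at 1.15, 1.08, 1.81 and 2.48 CPM in LPS and at 11.9, 15.5, 14.4 and 12.5 CPM in LPS+ET, a log2 fold change of 3.07 ± 0.30 (adjusted p = 1.1e-05). For both, all LPS+ET gradients lay above all LPS gradients.

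Of the damage sensors, Xpc rose, at the edge of the threshold, and Ddb2 did not pass the test. Xpc stood at 3.88, 3.69, 5.21 and 4.06 CPM in LPS and at 6.48, 6.89, 9.17 and 8.08 CPM in LPS+ET, a log2 fold change of 0.87 ± 0.21 (adjusted p = 0.0098). It was higher in 4 of 4 pools, but its call was lost when any single gradient other than LPS+ET+KU of LUL16 was left out (adjusted p of 0.0052 to 0.038 over the 12 fits). It was also lost with RLE size factors in place of TMM (adjusted p = 0.011), without a filter on low counts (0.021), with only the 8 gradients compared (0.010) and when fractions were weighted equally (a log2 fold change of 0.66, adjusted p = 0.14). Ddb2 had 0.36, 0.0568, 0.793 and 0.663 CPM in LPS and 1.09, 0, 1.07 and 0.79 CPM in LPS+ET, from 0 counts in the LPS+ET gradient of LUL16. Its log2 fold change of 0.82 ± 0.83 (adjusted p = 0.54) leaves its direction unknown at this depth.

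Rrm2b stood at 9.14, 11.1, 17.8 and 21.5 CPM in LPS and at 15.4, 16.3, 28.5 and 27.3 CPM in LPS+ET. The ranges overlap, since pools LUL17 and LUL18 had more Rrm2b than LUL15 and LUL16 in both treatments, yet LPS+ET was higher in 4 of 4 pools, as 25.8% of genes were. The log2 fold change was 0.56 ± 0.32 (adjusted p = 0.24) and, with the pool as a block, 0.57 ± 0.13 (adjusted p = 0.0036). With that block 8 of the 10 genes were called higher, against 13.9% of all genes.

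**Figure D1:**
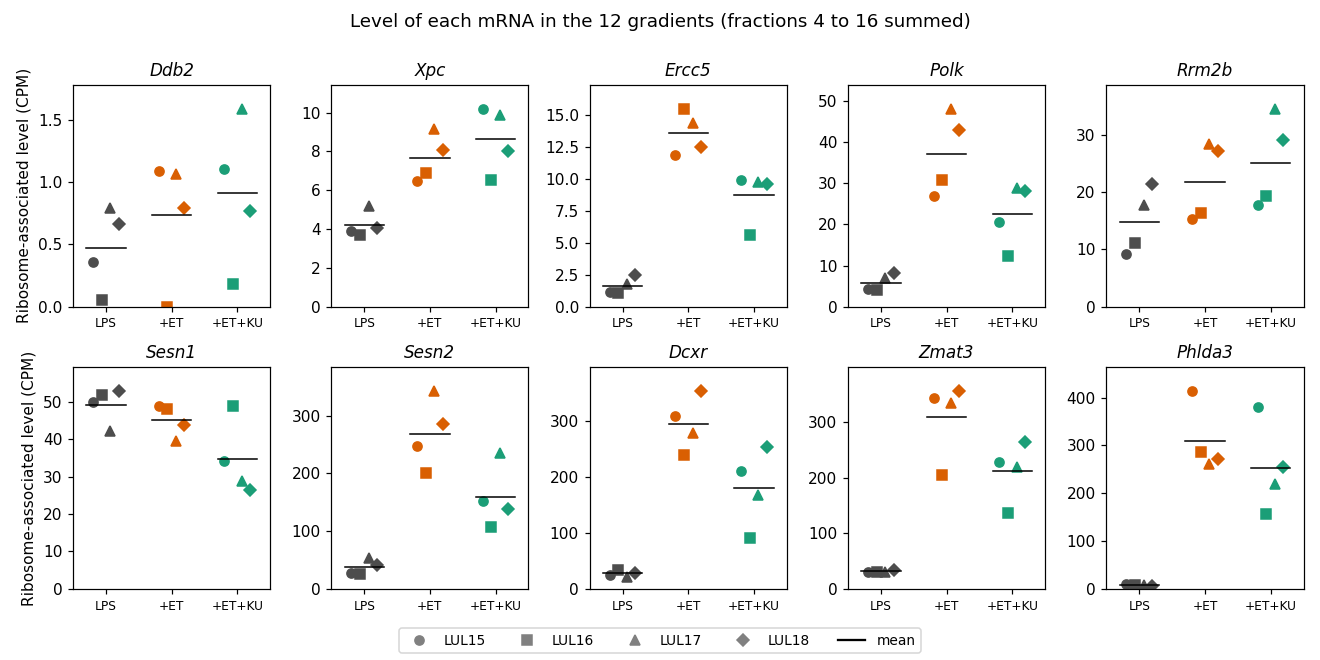
Ribosome-associated level (CPM, y axis from 0, a scale of its own in each panel) of the 10 genes in the gradients of each treatment. Symbols mark the 4 pools and bars the means. Points of LPS and LPS+ET do not overlap for Xpc, Ercc5, Polk, Sesn2, Dcxr, Zmat3 and Phlda3, while they overlap for Ddb2, Rrm2b and Sesn1.

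Cdkn1a and Trp53 served as reference. Cdkn1a, which encodes the cyclin-dependent kinase inhibitor p21, went from a mean of 28.4 ± 4.68 CPM (SD, n = 4) in LPS to 705 ± 176 in LPS+ET (log2 fold change 4.64 ± 0.29, adjusted p = 5.3e-07). Trp53 itself stood at 302 ± 88 CPM and 420 ± 87.5 CPM, a difference of 0.47 ± 0.22 on the log2 scale that did not pass the test (adjusted p = 0.15). Trp53 was higher in 4 of 4 pools, as 25.8% of genes were, and at 0.49 ± 0.14 with the block (adjusted p = 0.012). In LPS+ET+KU, Cdkn1a had 648 ± 195 CPM, at -0.12 ± 0.25 against LPS+ET (adjusted p = 0.86). Trp53 there had 292 ± 34.3 CPM, at -0.53 ± 0.22 against LPS+ET (adjusted p = 0.26, and 0.025 with the block). It was lower in 4 of 4 pools, as 19.9% of genes were.

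With the ATM inhibitor, the mean levels lay between LPS and LPS+ET for the 6 genes that rose most, and no gene of the 10 was called against LPS+ET. The change in mean from LPS+ET was -41.1% for Sesn2, -39.4% for Polk, -38.8% for Dcxr, -35.6% for Ercc5, -31.4% for Zmat3 and -18.2% for Phlda3. These 6 genes were lower in 4 of 4 pools, a pattern that 19.9% of genes had. The background is sparse here, since 30 of 12755 genes were called lower (0.235%). At an unadjusted p under 0.05, 5 of the genes were lower (Sesn2, Dcxr, Zmat3, Ercc5 and Polk), against 8.48% of genes, and DESeq2 likewise called none of the 10. The comparison uses the same LPS+ET gradients as that with LPS, so its values are not independent of the rise given above: a high LPS+ET gradient enlarges both.

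Sesn2 had 153, 107, 236 and 138 CPM in LPS+ET+KU, a log2 fold change from LPS+ET of -0.76 ± 0.29 (adjusted p = 0.20), and Polk had 20.6, 12.3, 28.9 and 28.2 CPM (-0.73 ± 0.30, adjusted p = 0.25). With the pool as a block both were called lower, Sesn2 at -0.79 ± 0.14 (adjusted p = 0.0022) and Polk at -0.76 ± 0.15 (adjusted p = 0.0054). That made 2 of the 10 genes, where 3.59% of all genes were called lower with the block. The calls of this comparison therefore turned on whether pools were compared within themselves.

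Dcxr had 210, 91.3, 168 and 254 CPM in LPS+ET+KU (-0.71 ± 0.27, adjusted p = 0.20) and Zmat3 229, 137, 220 and 265 CPM (-0.54 ± 0.22, adjusted p = 0.24). Ercc5 had 9.96, 5.63, 9.73 and 9.61 CPM, and all 4 of these values lay below all 4 of LPS+ET, as was so for 4.74% of genes (-0.64 ± 0.26, adjusted p = 0.24). Phlda3 had 380, 156, 220 and 255 CPM (-0.29 ± 0.25, adjusted p = 0.64), and -0.55 without the LUL15 gradient of LPS+ET+KU and -0.11 without that of LUL16 or without LPS+ET of LUL15. The LUL16 gradient was the lowest of the LPS+ET+KU gradients for all 4 of these genes. With the block none of them was called, at an adjusted p of 0.034 for Dcxr, 0.024 for Zmat3, 0.054 for Ercc5 and 0.18 for Phlda3.

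Xpc and Rrm2b had higher means with the inhibitor than without it. Xpc stood at 10.2, 6.54, 9.86 and 8 CPM in LPS+ET+KU, higher than LPS+ET in 2 pools and lower in 2 (0.17 ± 0.21, adjusted p = 0.76). Rrm2b stood at 17.7, 19.3, 34.6 and 29.1 CPM, higher than LPS+ET in 4 of 4 pools as 19.5% of genes were (0.20 ± 0.32, adjusted p = 0.82). Sesn1 stood at 34.3, 48.9, 28.9 and 26.5 CPM (-0.38 ± 0.19, adjusted p = 0.37) and Ddb2 at 1.11, 0.182, 1.59 and 0.769 CPM (0.18 ± 0.78, adjusted p = 0.94). Whether these genes differ from Sesn2 or Polk in their response to the inhibitor was not tested.

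**Figure D2:**
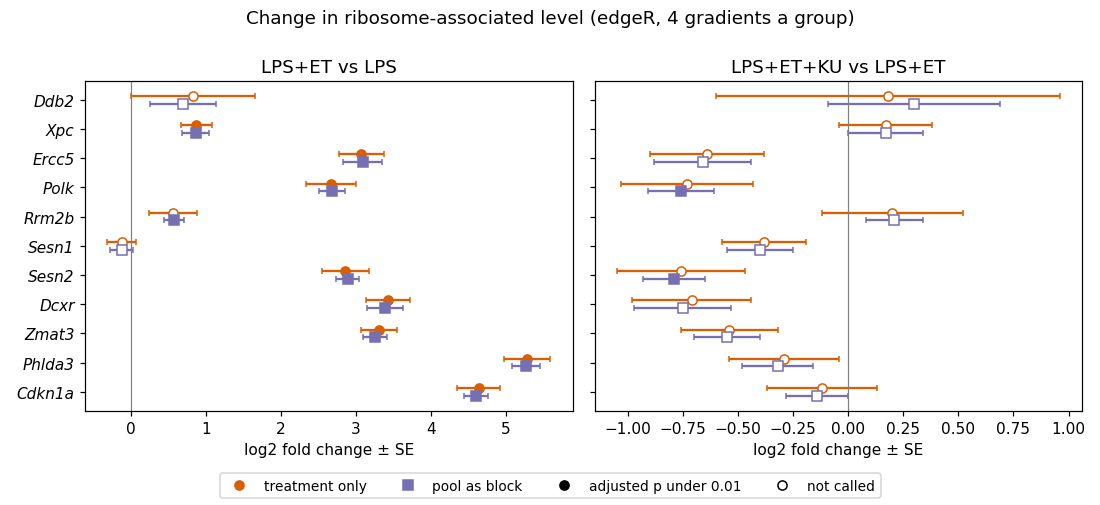
Log2 fold change ± SE of the 10 genes and Cdkn1a, LPS+ET against LPS (left) and LPS+ET+KU against LPS+ET (right), with treatment alone or with the pool as a block. Filled symbols have an adjusted p under 0.01: on the left 7 of the 10 genes without the block and 8 with it, on the right 0 without the block and 2, Sesn2 and Polk, with it.

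Against LPS, the same 7 of the 10 genes were called higher in LPS+ET+KU as in LPS+ET (6.25% of genes), with log2 fold changes of 5.00 ± 0.30 for Phlda3 (adjusted p = 7.4e-07), 2.76 ± 0.24 for Zmat3 (1.0e-05) and 2.72 ± 0.29 for Dcxr (4.5e-05). Ercc5 was at 2.43 ± 0.29 (adjusted p = 0.00011), Sesn2 at 2.10 ± 0.30 (0.00038), Polk at 1.95 ± 0.32 (0.0011) and Xpc at 1.04 ± 0.21 (0.0039). The mean of Phlda3 was still 32-fold that of LPS. The Xpc call was lost without LPS+ET+KU of LUL15 or LUL17 or without LPS of LUL15, LUL16 or LUL18 (adjusted p of 0.013 to 0.017), with only the 8 gradients compared (0.013) and with fractions weighted equally (0.017).

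Rrm2b, at 0.76 ± 0.32 against LPS (adjusted p = 0.10), was called with the block (0.78 ± 0.13, adjusted p = 0.00040), where 14.9% of genes were. Sesn1 was the only gene of the 10 with a negative value against LPS, at -0.51 ± 0.19 (adjusted p = 0.074), and it was lower in 4 of 4 pools, as 23.9% of genes were. Without the LPS+ET+KU gradient of LUL16, whose 48.9 CPM lay within the LPS range, its log2 fold change was -0.72 (adjusted p = 0.0066). Ddb2, higher in 4 of 4 pools as 29.8% of genes were, did not pass the test (1.01 ± 0.81, adjusted p = 0.40).

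The rise after etoposide was seen in each class of the gradient. Monosomes (single ribosomes) were in fractions 4 to 7, the light polysomes in 8 to 10 and the heavy ones in 11 to 16. In monosomes 6 of the 8 members tested were called higher (6.44% of genes), in light polysomes 6 of 9 (6.56%) and in heavy polysomes 7 of 9 (6.14%). Ddb2 had too few counts to be tested in any class and Xpc too few in monosomes. The 6 genes called in every class were Polk, Sesn2, Dcxr, Zmat3, Phlda3 and Ercc5.

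For Phlda3 the log2 fold change was 4.58 ± 0.44 in monosomes, 5.49 ± 0.43 in light and 5.22 ± 0.36 in heavy polysomes. Sesn2 gave 2.29 ± 0.33, 2.52 ± 0.33 and 3.17 ± 0.30 in the same order, and Zmat3 gave 3.76 ± 0.24, 3.48 ± 0.23 and 3.13 ± 0.35. The order of the classes ran one way for Sesn2 and the other for Zmat3, and the difference between classes is taken up below as a share.
Xpc was called in heavy polysomes (1.00 ± 0.24, adjusted p = 0.0094), and not in light polysomes (0.86 ± 0.42, adjusted p = 0.17). That call was lost when any gradient other than LPS+ET+KU of LUL16 was left out (adjusted p of 0.011 to 0.035). Rrm2b was not called in any class, and with the block it was called in light polysomes (0.79 ± 0.17, adjusted p = 0.0014), as 12.9% of genes were.

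Under the inhibitor no member was called in any class, where 0.146%, 0.151% and 0.317% of genes were called lower in monosomes, light and heavy polysomes. At an unadjusted p under 0.05, 4 of 8 members were lower in monosomes (6.86% of genes), 4 of 9 in light (8.58%) and 1 of 9 in heavy polysomes (6.95%). In monosomes the changes of Dcxr (-1.03 ± 0.21, adjusted p = 0.031) and Zmat3 (-1.03 ± 0.21, adjusted p = 0.030) came nearest. With the pool as a block, 3 members were called lower in monosomes (3.12% of genes): Zmat3 at -1.05 ± 0.13 (adjusted p = 1.6e-05), Dcxr at -1.06 ± 0.16 (0.00011) and Sesn2 at -0.57 ± 0.13 (0.0077). In light polysomes 3 were called lower with the block (3.43%): Polk at -1.21 ± 0.18 (adjusted p = 0.00034), Zmat3 at -0.74 ± 0.15 (0.0031) and Sesn2 at -0.64 ± 0.14 (0.0046). In heavy polysomes 0 were (1.57%). There Zmat3 was at -0.21 ± 0.22 and Phlda3 at 0.06 ± 0.18 with the block, and Sesn2 at -0.88 ± 0.21 (adjusted p = 0.015).

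**Figure D3:**
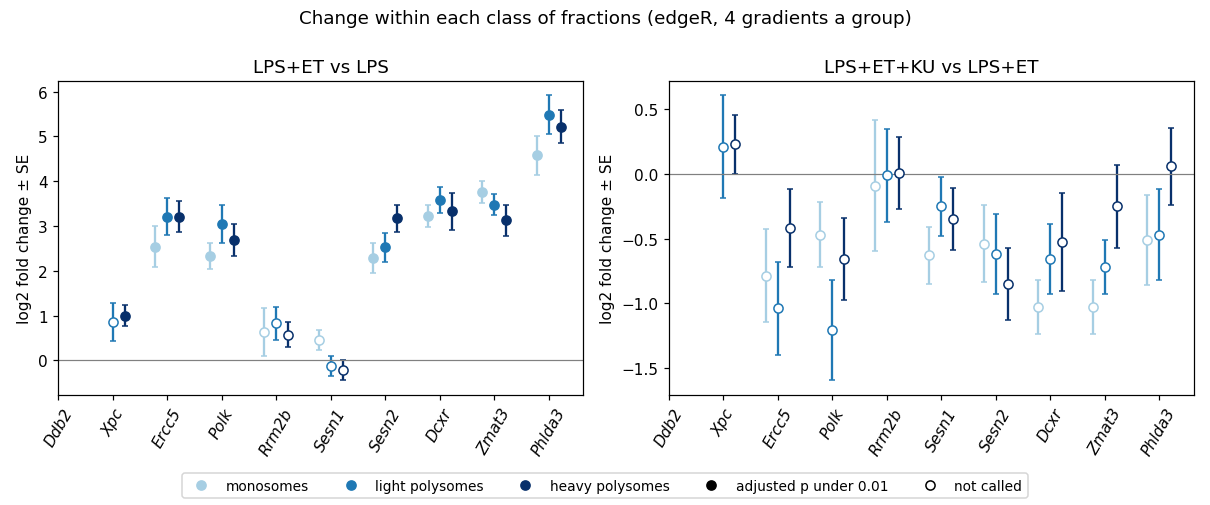
Log2 fold change ± SE within monosomes, light and heavy polysomes, LPS+ET against LPS (left) and LPS+ET+KU against LPS+ET (right), without a block. Filled points have an adjusted p under 0.01. Ddb2 was not tested in any class and Xpc not in monosomes. On the left Polk, Sesn2, Dcxr, Zmat3, Phlda3 and Ercc5 are filled in all classes, and on the right no point is.

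To compare genes along the gradient, fraction libraries were scaled to the same total and the share of a gene in each fraction was taken. The libraries were made from the same RNA concentration of each fraction. A share therefore shows where an mRNA was frequent relative to other mRNA, and not where most of its molecules lay. The fraction with the highest mean share differed between the genes, and the highest fraction of a gene could also differ between gradients. Xpc had its highest mean share in fraction 14, deep in the heavy polysomes. That fraction held 18.3 ± 3.7% (SD) of its scaled counts in LPS, 28.4 ± 7.36% after etoposide and 23.4 ± 3.73% with the inhibitor. These shares rest on 44 to 149 counts of Xpc a gradient. In LPS its highest fraction was 4, 13, 14 and 14 from LUL15 to LUL18. In LPS of LUL15, 1 count in fraction 4 made 30.5% of the gradient. Polk likewise had its highest mean share in fraction 14 in LPS and LPS+ET (14.2% and 18.4%). Dcxr peaked in fraction 11, on the border of light and heavy polysomes, with 17.3% in LPS, 18.1% after etoposide and 18.2% with the inhibitor. Phlda3 after etoposide had nearly the same mean share in fraction 10 (16.5 ± 3.28%, SD) and fraction 11 (16 ± 4.29%). Its highest fraction there was 10 in LUL15 and LUL16 and 11 in LUL17 and LUL18. With the inhibitor its mean share was highest in fraction 11 (18.4 ± 2.58%). Sesn2 after etoposide was highest in fraction 13 (20.3%), and Sesn1 was highest in that fraction in LPS (15.4%) and LPS+ET (13.3%).

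In the fraction profile test, which asks whether the difference between treatments varies along the 13 fractions, 0 of the 10 members were called for LPS+ET against LPS (1.37% of 10360 genes) and 0 of 9 between the inhibitor and etoposide alone (1.05% of 10472 genes), where Ddb2 was not tested. At an unadjusted p under 0.05 there were 1 of 10 and 0 of 9 members, against 13.3% and 9.2% of genes, and Zmat3 came nearest, with an adjusted p of 0.12 for LPS+ET against LPS. With a term for each gradient it was called (adjusted p = 0.0066) and with the pool as a block it was not (adjusted p = 0.015). The all-gene counts rose too with these terms.

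**Figure D4:**
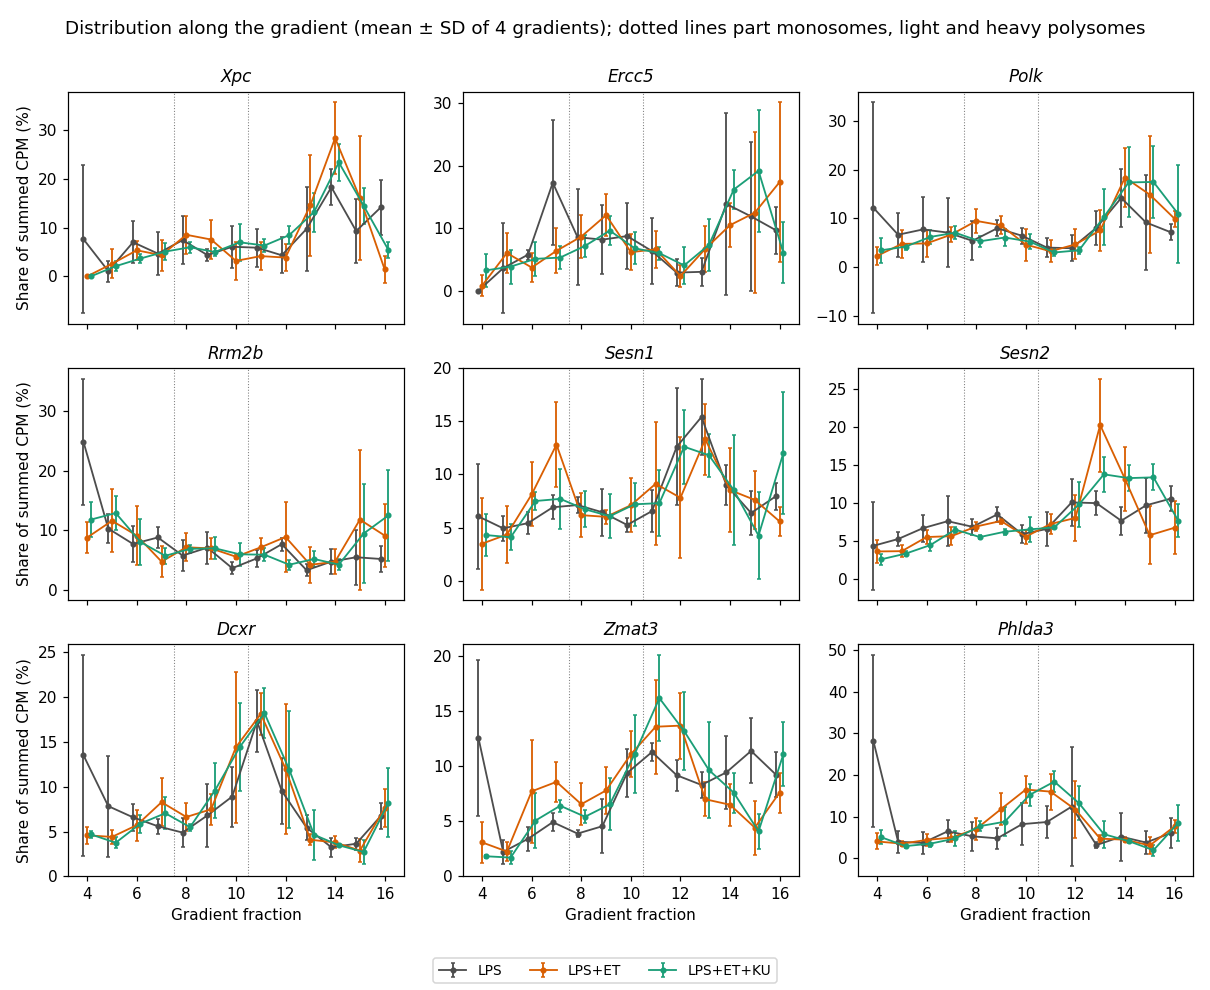
Share of the scaled counts of each gene in fractions 4 to 16 (mean ± SD of 4 gradients), for the genes other than Ddb2, which had at most 24 counts in a gradient. Dotted lines part monosomes, light and heavy polysomes. Mean shares of Xpc and Polk were highest in fraction 14 in LPS and LPS+ET, and that of Dcxr in fraction 11 in all treatments. The high fraction 4 values of LPS rest on 0 to 14 counts a library.

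The start of the LPS gradients was thinly counted. Fraction 4 libraries held 14724 to 419646 counts in LPS, 32104 to 218780 after etoposide and 321208 to 1024262 with the inhibitor. In LPS, 1 count of Phlda3 in the LUL18 library made 49.3% of its gradient, and 2 counts in the LUL17 library made 41.2%. For Polk, 1 count in the LUL17 library made 44.6%. Shares in LPS that include fraction 4 therefore turn on single tags, and shares over fractions 5 to 16 are given beside them.

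All but Ddb2, Xpc and Ercc5, 7 genes, had the mean of 100 counts per gradient that the test of the heavy polysome share asked for. It was made with limma on the logit of the share. For LPS+ET against LPS, 0 of 7 were called (0.05% of 8000 genes higher, 0.125% lower), and 2 of 7 were higher at an unadjusted p under 0.05, as 14.3% of genes were. For LPS+ET+KU against LPS+ET, 0 of 7 were called, where 0% of all genes were in either direction. For this step 0 of 7 passed an unadjusted p under 0.05, against 6.61% of genes higher and 2.38% lower. For LPS+ET+KU against LPS, 1 of 7 was called higher (1.14% of genes), Polk, with a logit difference of 0.90 ± 0.13 (adjusted p = 0.0030). The Polk call did not hold without fraction 4 (0.44, adjusted p = 0.11), with counts as deposited (-0.11, adjusted p = 0.96), with a smaller count added (0.72, adjusted p = 0.030), with a count added in proportion to library totals (0.65, adjusted p = 0.062), or without the gradient LPS+ET+KU of LUL17 (0.84, adjusted p = 0.011) or LPS of LUL15 (0.88, adjusted p = 0.013).

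Over fractions 5 to 16, Polk had 46.9%, 45.7%, 60.6% and 61.8% in heavy polysomes in the LPS gradients of LUL15 to LUL18, 60.4%, 58.5%, 61.5% and 60.1% after etoposide, and 62.7%, 63.3%, 67.8% and 64.9% with the inhibitor. The LPS+ET+KU gradients lay above all others, as was so for 3.14% of genes against LPS+ET and 6.33% against LPS, and the pair LUL15 and LUL16 was low in LPS. Sesn2 had 55.2%, 56.5%, 60.1% and 56.9% in LPS, 62.4%, 62.6%, 66.6% and 63.1% after etoposide, and 67.7%, 68.9%, 65.4% and 64.2% with the inhibitor. Both damaged groups lay above LPS for Sesn2 without overlap, as 5.1% of genes did for LPS+ET and 6.33% for LPS+ET+KU, but the test with fraction 4 left out did not call it (0.28, adjusted p = 0.16, and 0.40, adjusted p = 0.044).

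The monosome share of Sesn2 over fractions 5 to 16 was 20.5 ± 1.7% (SD, n = 4) in LPS, 15.4 ± 2.11% after etoposide and 14.7 ± 0.563% with the inhibitor, with no overlap of LPS with either (5.88% and 7.99% of genes). Sesn1 went the other way in LPS+ET, with 18.4 ± 1.05% in LPS, 26.3 ± 5.94% after etoposide and 20.2 ± 3.91% with the inhibitor. Its LPS+ET gradients did not overlap those of LPS, as was so for 8.89% of genes in the higher direction. A test was not run on monosome shares.

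Zmat3 had 66.1%, 64.9%, 73.4% and 65.8% of fractions 5 to 16 in heavy polysomes in LPS and 59%, 36.9%, 62.5% and 60.1% in LPS+ET, lower without overlap (10.4% of genes). In LPS+ET+KU it had 65.8%, 51.1%, 72.9% and 62.3%. The LUL16 gradient was the lowest in each treatment, and the logit difference of LPS+ET from LPS over these fractions was -0.53 (adjusted p = 0.18).

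Phlda3 and Dcxr show what fraction 4 does. With it, the monosome share of Phlda3 was 27.6% to 59.5% in LPS and 14.1% to 21.6% in LPS+ET, and that of Dcxr 27.3% to 40.6% and 20.6% to 26.1%. These 2 of 7 members did not overlap (4.4% of genes were lower in that way). Without it, Phlda3 had 12.7% to 23.8% in LPS against 10.7% to 16.5% in LPS+ET and Dcxr 20.1% to 27.3% against 16.7% to 22.4%, and both overlapped. Rrm2b had 51.6 ± 10.8% of its scaled counts in monosomes in LPS, 34.3 ± 13.1% after etoposide and 38.5 ± 9.93% with the inhibitor, where the median of all genes lay between 17.8% and 22.2% in the 12 gradients. These Rrm2b shares join its sites, and 58.8% of its counts over all libraries came from the intronic one. Over fractions 5 to 16 it had 29.3%, 29.1%, 40.5% and 45.1% in LPS and 18.3%, 15.7%, 35.7% and 42.8% in LPS+ET, so that pools LUL17 and LUL18, which had more Rrm2b, also had more of it in monosomes.

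Most other p53 targets rose after etoposide, while few other genes of the same pathways passed the test. Of 24 further p53 targets, 20 were called higher after etoposide and 0 lower (7.88% and 4.81% of genes), with a median log2 fold change of 2.32. This list and the pathway lists below were likewise chosen with earlier results of these data known. The members of this list with the highest folds were Perp (5.91 ± 0.72), Plk2 (4.67 ± 0.38) and Cdkn1a. Perp, a membrane protein of cell death, had a mean of 0.133 CPM in LPS and 7.56 CPM in LPS+ET. With the inhibitor, 1 of the 24 was called lower than in LPS+ET (0.235% of genes), Ppm1d, the phosphatase that turns ATM and p53 signalling down (-1.14 ± 0.15, adjusted p = 0.0018). With the block 9 were (3.59% of genes), DESeq2 called 6, and 12 were lower at an unadjusted p under 0.05 (8.48% of genes). The median was -0.68 beside 0.04 for all genes.

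Of 22 excision repair genes tested beside Ddb2, Xpc and Ercc5, 0 were called after etoposide in either direction (median -0.01). At an unadjusted p under 0.05 there were 5 higher and 4 lower, beside 18.4% and 15.9% of all genes. DESeq2 called 2 lower, where it called 1381 higher and 972 lower of 19537 genes. Ercc1 and Ercc4, which form the nuclease that cuts on the 5′ side of the lesion, were at 0.20 ± 0.22 and 0.67 ± 0.25 (adjusted p = 0.071 for the latter). Ercc2 and Ercc3, helicases of TFIIH, were at -0.02 ± 0.29 and 0.43 ± 0.19. Ercc6 and Ercc8, of transcription-coupled repair, were at -0.34 ± 0.28 and -0.59 ± 0.15 (adjusted p = 0.011 for the latter). Ddb1, the partner of Ddb2, was at 0.15 ± 0.18. With the block 2 genes of this list were called higher (Ercc4 and Uvssa) and 4 lower (Ercc8, Rad23b, Ccnh and Cul4b), beside 13.9% and 12.8% of all genes.

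Of 11 translesion synthesis genes 0 were called (median -0.15), 1 was higher at an unadjusted p under 0.05 (18.4% of genes), and DESeq2 called 0. Polh and Poli, polymerases of the same family as Polk, were at -0.43 ± 0.40 and -0.15 ± 0.58. Of 11 genes of deoxynucleotide supply 0 were called (median -0.21), and DESeq2 called 1 lower. At an unadjusted p under 0.05, 2 were higher and 4 lower, beside 18.4% and 15.9% of all genes. The value was -0.38 ± 0.46 for Rrm1, the large subunit that Rrm2b works with. Rrm2, the small subunit of dividing cells, was at 0.61 ± 0.24 after etoposide and at -0.84 ± 0.24 with the inhibitor against LPS+ET, and both of these were called with the block (adjusted p = 0.0033 and 0.0018). Rrm2b over the same steps gave 0.56 and 0.20.

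Of 17 redox genes tested 1 was called higher after etoposide, Hmox1, the heme oxygenase (1.88 ± 0.33, adjusted p = 0.0011; 42.2 to 155 CPM), and the median was 0.26. There were 3 redox genes higher at an unadjusted p under 0.05 (18.4% of genes), and DESeq2 called 3 higher. With the block 2 were called higher (Hmox1 and Srxn1) and 1 lower (Prdx5), beside 13.9% and 12.8% of all genes. Of 18 genes of the sestrin and mTORC1 pathway 1 was, Ddit4, another p53-linked restrainer of mTORC1 (1.76 ± 0.31, adjusted p = 0.0012; 131 to 443 CPM), and the median was 0.18. In that list 3 were higher at an unadjusted p under 0.05 (18.4% of genes), DESeq2 called 1 higher and the block 2 (13.9%). Sesn3, the remaining sestrin, was at 0.52 ± 0.20 (adjusted p = 0.080) after etoposide and was called higher in LPS+ET+KU against LPS (0.85 ± 0.20, adjusted p = 0.0084). Between LPS+ET+KU and LPS+ET, edgeR called 0 genes of these 5 pathway lists, with medians of -0.21 for excision repair, 0.06 for translesion synthesis, -0.48 for deoxynucleotide supply, -0.40 for redox and 0.03 for the sestrin and mTORC1 list, beside -0.46 for the 10 genes. At an unadjusted p under 0.05, 2, 1, 4, 4 and 1 genes of these lists were lower and 1, 0, 0, 0 and 0 higher, beside 8.48% and 7.45% of all genes, and DESeq2 called 1 lower in excision repair and 1 in redox. With the pool as a block 4 genes of these lists were called lower, Rrm2 and Dctpp1 of deoxynucleotide supply and Nqo1 and Txn1 of the redox list, where 3.59% of all genes were.

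**Figure D5:**
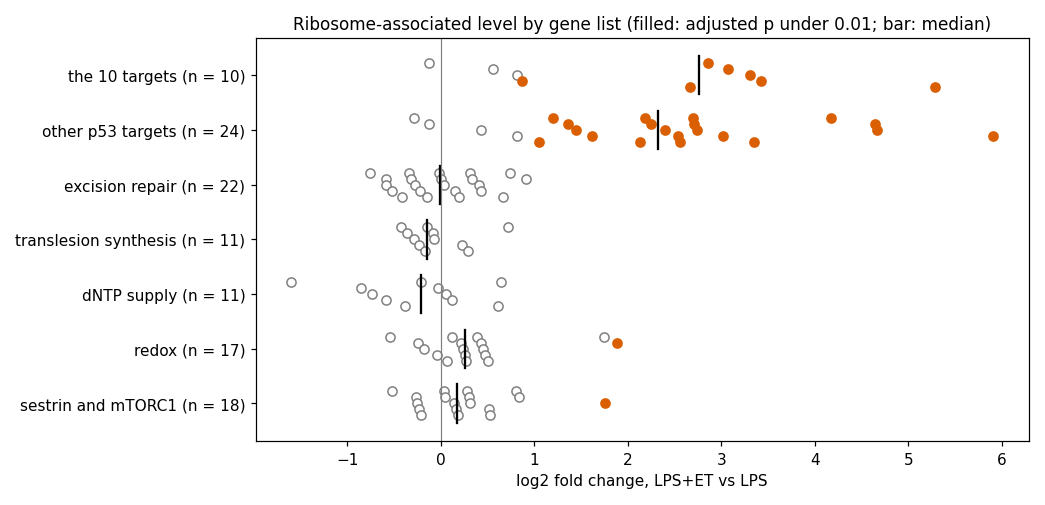
Log2 fold change of LPS+ET against LPS (x axis) for the 10 genes and 6 lists of related genes, 1 point a gene. Filled points have an adjusted p under 0.01 and bars mark medians, which lie at 2.77 for the 10 genes and 2.32 for other p53 targets, and between -0.21 and 0.26 for the pathway lists.

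The genes whose levels followed the mean of the 10 most closely over the 12 gradients, by Pearson correlation of log2(CPM + 0.5), were Cdc42bpg (0.986), Peli3 (0.983), Ulk1 (0.982), Tmem63b (0.981) and Rap2a (0.981). Ulk1, the kinase that starts autophagy, went from 39.7 to 261 and 161 CPM in mean level from LPS to etoposide alone and with the inhibitor. The same measure was 0.987 for Sesn2, 0.981 for Polk, 0.722 for Rrm2b, 0.529 for Ddb2 and -0.511 for Sesn1, the only negative value among the 10. These correlations describe 12 gradients that share 3 treatments and 4 pools, and each gene of the 10 is part of the mean it was compared with.

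Several B cell markers were lower after etoposide, while the ranges of the summed myeloid markers overlapped between treatments. The B cell markers Cd79a, Cd79b, Ms4a1, Pax5, Cd22, Blk and Ebf1 had negative values for LPS+ET against LPS, 7 of 7, with a median log2 fold change of -0.94 beside 0.03 for all genes. Of these, 6 were lower at an unadjusted p under 0.05 (15.9% of genes), and with the pool as a block 5 were called lower (12.8% of genes). Without the block 2 were called lower (4.81% of genes), Cd22 and Ebf1, with means of 434 and 69.7 CPM in LPS and 100 and 17.4 CPM in LPS+ET. Before TMM scaling, summed myeloid markers (8 genes) stood at 33.4 to 86.8 CPM in LPS, 47.6 to 167 after etoposide and 32.9 to 125 with the inhibitor. For LPS+ET against LPS, 7 of 7 tested markers were positive (median 0.77 beside 0.03 for all genes) and 0 were called. At an unadjusted p under 0.05, 2 were higher (18.4% of genes), and with the block 1 was called higher (13.9%). For LPS+ET+KU against LPS+ET, 6 of 7 were negative, Cd14 was positive (1.88), and 0 were called without the block. With the block 1 was called higher, beside 353 of 12755 genes, and DESeq2 called 1 higher, beside 141 of 19537. Cd14 was called higher in LPS+ET+KU against LPS (3.83 ± 0.51). Likewise unscaled, summed T cell markers ranged over 130 to 159, 108 to 296 and 83.1 to 375 CPM, nearly all of it Lck, with Cd3e at 0.435 CPM at most. Unscaled erythroid markers summed to 56.1 to 63.9, 34.9 to 89.5 and 23.2 to 177 CPM. The part of other cells in the levels of the 10 genes was not tested.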

How the data were processed

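Polysome fractions of LPS-activated mouse splenic B cells were sequenced as 3′ end tags. The same RNA concentration of each fraction was reverse transcribed with barcoded primers, so that library totals do not measure the RNA in a fraction. The authors mapped reads to GRCm38 (TopHat2 2.0.12 and HTSeq in the submitters' processing notes, which also name DESeq2 1.6.3), removed PCR copies by random bases, and deposited 1 table of raw counts per gene and fraction library. Of its columns, 78 (LUL16 and LUL18) could be matched only to a treatment and fraction, and the library of fraction 17 was not used. Libraries of fractions 4 to 16 held 14724 to 4170688 counts, and values of genes with few counts are imprecise accordingly.

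Fractions were summed to 12 gradients. Levels, overall and per class, were tested with edgeR 4.0.16 (R 4.3.3; TMM, filterByExpr, quasi-likelihood, treatment as the only term, 12 gradients together), whose TMM factors also scale the CPM of genes (summed marker lists, Cd79a, Cd79b and Cd3e are unscaled), and calls were made at a Benjamini-Hochberg adjusted p under 0.01 over all genes tested. Heavy polysome shares (libraries scaled to CPM after 0.5 was added to each count; a mean of 100 counts or more) were tested on the logit scale with limma 3.58.1, and fraction profiles by the interaction of fraction and treatment in edgeR on single fraction libraries. Shares in percent came from scaled counts with nothing added. The pool, read from column names, paired the gradients: deviations from treatment means correlated at 0.283 to 0.779 in 12 same-pool pairs. In 36 other pairs they correlated at -0.604 to 0.252. Deviations of a treatment cancel over its pools, which pushes these other values down, so that they are no separate evidence for the pairing. A fit with the pool as a block was the alternative. The labels name no animals, so that p-values of levels and shares measure the spread between these gradients. The main fit of the fraction profile test had no term for the gradient. Its p-values measure the spread between fraction libraries, although 13 of them came from each gradient. Scripts were tested on simulated data. Alternatives were DESeq2 1.42.0, other scaling, filters and weights, and leaving out gradients; leaving out fraction 4 and adding counts in proportion to library totals were chosen after seeing the data.

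The 10 genes and all gene lists were chosen with earlier results of these data known. Genes named beside the 10 were Cdkn1a and Trp53, close relatives of the members, called list genes with the largest changes, and the 5 genes most alike over gradients. Other genes named from the lists were chosen after their values were seen. Coordinates are 1-based, on GRCm38. Promoter windows were from RefSeq (GRCm38.p6). One marker result is not reported here.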

Additional observations from a re-analysis of the deposited data

Results flagged for a closer look

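In groups of 4 gradients, a single gradient lay far from the others in 4 of 59 groups examined (6.78%), where chance alone marks about 1 in 20. The level of Zmat3 in LPS+ET was 205 CPM in LUL16 and 335 to 356 CPM in the other 3 gradients, and its heavy polysome share there was 36.1% against 57.4% to 59%. That gradient had the fewest counts of all (6404957). The level of Phlda3 in LPS+ET was 414 CPM in LUL15 and 262 to 287 CPM in the others. The level of Ercc5 in LPS+ET+KU was 5.63 CPM in LUL16 and 9.61 to 9.96 CPM in the others. Leaving out any 1 gradient left the calls of Zmat3 and Phlda3 for LPS+ET against LPS in place in 12 of 12 fits each. The log2 fold changes then ran over 3.23 to 3.45 for Zmat3 and 5.11 to 5.39 for Phlda3. These ranges cover left-out gradients only, and not the size of the folds with fractions weighted equally. The LUL16 gradient of Ercc5 bears on LPS+ET+KU against LPS+ET, where the log2 ratio was -1.46 in that pool and -0.25 to -0.57 in the others. Without that gradient the log2 fold change of Ercc5 went from -0.64 (adjusted p = 0.24) to -0.47 (adjusted p = 0.36), and neither passed the test.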

How the results depend on the processing

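With the pool as a block (the paired fit), 2 members were called lower in LPS+ET+KU against LPS+ET where 0 were without it (Sesn2 and Polk), 3 in monosomes and 3 in light polysomes. Rrm2b was called higher than LPS in both damaged groups and in light polysomes of LPS+ET. The block changed no other call of a member's level or share. Leaving out 1 gradient gave 6 to 7 members called for LPS+ET against LPS and for LPS+ET+KU against LPS, and 6 to 7 in heavy polysomes, in each case by Xpc. The higher heavy share of 1 member (Polk) in LPS+ET+KU against LPS went to 0 with counts as deposited (Polk -0.11, a reversal, adjusted p = 0.96), at a mean of 300 counts (Polk not tested), with 0.1 count added, with a count added in proportion to library totals (0.65, adjusted p = 0.062) and without fraction 4, and ran from 0 to 1 when 1 gradient was left out. In the fraction profile test, 7 members were called for LPS+ET against LPS and 2 for LPS+ET+KU against LPS+ET when treatment and interaction were tested together, which includes the change in level, and 1 (Zmat3) for LPS+ET against LPS with a term for each gradient. The causes were not tested where none is given. The other counts of members stayed within 1.5 times in 158 fits with a gradient left out and 48 others.

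Counts over all genes moved more. For LPS+ET against LPS, 1005 were higher and 613 lower, 1772 and 1631 with the block, and 1626 and 1249 at an adjusted p under 0.05. For LPS+ET+KU against LPS+ET, 28 and 30 were 353 and 458 with the block, 141 and 248 with DESeq2, 134 and 185 under 0.05, 14 and 7 with equal weight per fraction, and 0 and 0 with 8 gradients. For LPS+ET+KU against LPS, 797 and 564 were 1898 and 1691, 1162 and 1043, and 1638 and 1265 in the first 3 of these. Calls were higher in 74.5% of cases with equal weight against 58.6% for LPS+ET+KU against LPS, and 66.7% (DESeq2 36.2%) against 48.3% for LPS+ET+KU against LPS+ET. The median of all genes for LPS+ET+KU against LPS was 0.09, 0.22 with DESeq2 and 0.23 without a filter. Heavy share calls for LPS+ET+KU against LPS, 91 higher and 41 lower, were 32 and 91 without fraction 4, 25 and 46 with 0.1 added, 16 and 50 in proportion, 24 and 13 at a mean of 30, 38 and 36 with 8 gradients, and 0 and 0 as deposited (96 lower at a mean of 300), where the median logit difference was -0.31 against 0.12. For LPS+ET against LPS, 4 and 10 were 8 and 50 without fraction 4, 4 and 22, 5 and 28, 0 and 1, 0 and 0, and 0 and 0 in the same order, 31 and 47 at a mean of 300, and 15 and 18 with the block. Profile calls, 142 and 110 in the first and second comparison, were 3208 and 839 with both terms, 593 and 380 with gradient terms, 508 and 368 with the block, and 218 and 97 without libraries under 100000 counts. Depth limits Ddb2 (107 counts) to no direction, and leaves Xpc and Ercc5 without a test of their share.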
